A study of Mus musculus with 2 samples.

Results

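Hyaluronan is a long unsulphated sugar polymer that cells extrude into the matrix around them. Its 3 synthases, Has1, Has2 and Has3, build it at the plasma membrane from UDP-glucuronic acid and UDP-N-acetylglucosamine, and the hyaluronidases Hyal2, at the cell surface, and Hyal1, in the lysosome, cut it into shorter chains. Cd44 is the main receptor for it on tumour and immune cells. Vcan (versican) is a large proteoglycan whose end domain binds the polymer, and Tnfaip6 is a secreted protein that binds it and transfers protein heavy chains onto it during inflammation and ovulation.

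Messenger RNA of these 8 genes was measured, of 32285 genes in all, in MC38 tumours, which come from a murine colon cancer line and were hosted by C57BL/6 mice. The RSPO3-OE group carried MC38 cells that overexpress RSPO3, a secreted enhancer of Wnt signalling, and the Ctrl group carried control MC38 cells. Each group had 1 droplet single-cell library, from digested tumour tissue, so that no difference has a replicate check and no test was made. The sources used here do not give how many mice stand behind a library, the site and age of the tumours, or the kind of control vector. The RSPO3-OE library held 6993 cells after filtering with a median of 18915 molecular tags (UMIs), and the Ctrl library 6895 with 16627. The genes were chosen by their class levels and library ratios in these same data, so every level and ratio below is a description. Levels (CPM) are UMIs of a gene per 1000000 UMIs of the class, and brackets hold 95% exact intervals that cover counting error only.

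Cells were assigned by UMI rules. Tumour cells had no UMI of the leukocyte gene Ptprc and at least 1 of Hmga2, which left 4089 RSPO3-OE and 4313 Ctrl cells with median depths of 25064 and 21435 UMIs. Macrophages had at least 20 UMIs of C1qa, C1qb and C1qc together (1179 and 1164 cells), and T cells at least 2 UMIs of Cd3d, Cd3e and Cd3g (405 and 203 cells). Rspo3 stood at 106 CPM in RSPO3-OE tumour cells and had 0 UMIs in Ctrl tumour cells, although 3191 of the 4089 RSPO3-OE cells had none. Of 5 tumour markers, Hmga2 was present by the class rule. Hmga1 was seen in 80.2% of RSPO3-OE and 76.7% of Ctrl tumour cells, and Krt8 in 65.9% and 15.9%. Krt7 (2.13 and 0.79 CPM) and Igf2bp3 (1.13 and 1.65 CPM) were near 0. The epithelial gene Epcam had 0 UMIs there, and the matrix gene Dcn stood at 2126 and 1688 CPM. Y-linked host genes summed to 0.31 and 0.19 CPM in tumour cells against 154 and 96.4 CPM in macrophages. Barcodes that met 2 rules, of which RSPO3-OE had 152 and Ctrl 15, entered no class. In RSPO3-OE 114 of them met the tumour and the endothelial rule, against 3 in Ctrl. Keeping them changed no call in tumour cells, and in those 114 Has1 stood at 48.4 CPM. The libraries shared 7 barcodes, all kept.

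The member furthest apart between the libraries, Has1, lies on the minus strand of chromosome 17 and Tnfaip6 on the plus strand of chromosome 2. Their promoters are shown because both were higher in RSPO3-OE tumour cells and hold letters of motifs that stress- and cAMP-activated factors are known to bind. The bases are from RefSeq (GRCm38.p6), 5′ to 3′, from 250 bases before the RefSeq start to the start of the GENCODE gene, at chr17:17855206-17855438 (minus strand) and chr2:52037863-52038008 (plus strand). Capitals mark the motif match.
Has1: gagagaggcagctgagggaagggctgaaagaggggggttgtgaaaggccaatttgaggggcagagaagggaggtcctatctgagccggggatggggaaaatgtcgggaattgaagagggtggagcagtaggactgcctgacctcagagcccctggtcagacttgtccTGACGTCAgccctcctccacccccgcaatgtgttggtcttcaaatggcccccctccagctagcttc
Tnfaip6: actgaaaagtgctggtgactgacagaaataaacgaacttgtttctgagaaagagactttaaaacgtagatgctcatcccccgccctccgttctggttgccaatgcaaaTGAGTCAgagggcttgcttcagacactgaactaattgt
In Has1 the match is a cAMP response element, TGACGTCA, that begins 83 bases before the RefSeq start. Of 32851 promoter windows of 250 bases, 1.55% hold these letters. In Tnfaip6 it is an AP-1 element, TGANTCA, that begins 142 bases before the start, and 6.75% of windows hold it. Both strands of 6 member promoters were searched for these 2 motifs, for the TCF/LEF letters CTTTGAT (3.21% of windows) and for the TATA box letters TATAAA (12.4%). Has2 and Has3 had no entry in the promoter table. The Hyal1, Hyal2, Cd44 and Vcan windows held none of the 4 motifs, and no window of the 6 held the last pair. The Hyal2 window, placed by the RefSeq start, lies wholly within the GENCODE gene, so bases upstream of that gene were not searched. A match is a description of the letters, not of binding.

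In tumour cells 5 of the 8 genes were at least 1.5-fold higher in RSPO3-OE, namely Has1, Has2, Cd44, Tnfaip6 and Vcan. Hyal1 was at least 1.5-fold lower, and Has3 and Hyal2 were within 1.5-fold. Over all 15097 genes with at least 10 UMIs in tumour cells, 12.9% were that much higher and 17.3% that much lower. The median log2 ratio of the 8 genes was 0.81, beside -0.09 for all genes. Since the genes were chosen on this contrast, nothing is read from these counts.

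Has1 had 7865 UMIs in RSPO3-OE tumour cells and 247 in Ctrl, which is 71.0 CPM (69.4 to 72.6) against 2.33 (2.05 to 2.64). The ratio was 30.4-fold (26.8 to 34.7), or 4.93 on the log2 scale, rank 28 of 15097 genes from the top. A Has1 UMI was seen in 55.1% of RSPO3-OE tumour cells (53.5 to 56.6) and 3.34% of Ctrl tumour cells (2.82 to 3.92). With each cell thinned to 2000 UMIs the shares were 12.7% and 0.44%. Macrophages, which may hold free RNA from lysed cells, had a Has1 UMI in 1.70% and 0.086% of cells at median depths of 11862 and 12645 UMIs. The Ctrl share in tumour cells was thus above its own macrophage reading.

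Has2, the synthase of embryonic heart and cumulus matrix, had 853 and 51 UMIs, at 7.70 CPM (7.19 to 8.24) against 0.48 (0.36 to 0.63). Its ratio was 16.0-fold (12.04 to 21.6), rank 67 of 15097, and 14.6% against 0.88% of tumour cells had a UMI. Thinned to 2000 UMIs, 1.91% and 0.093% of cells had one. An antisense gene, Has2os, overlaps the locus on the opposite strand. Has3 was barely detected, with 17 and 14 UMIs over all tumour cells (0.15 and 0.13 CPM) and a log2 ratio of 0.21 (-0.89 to 1.35), an interval wide enough to hold no difference and a 2.54-fold one. At least 1 UMI of any synthase was seen in 60.4% of RSPO3-OE tumour cells (58.9 to 61.9) and 4.52% of Ctrl tumour cells (3.92 to 5.18). At an equal depth of 5000 UMIs these shares were 27.1% and 1.44%.

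**Figure D1:**
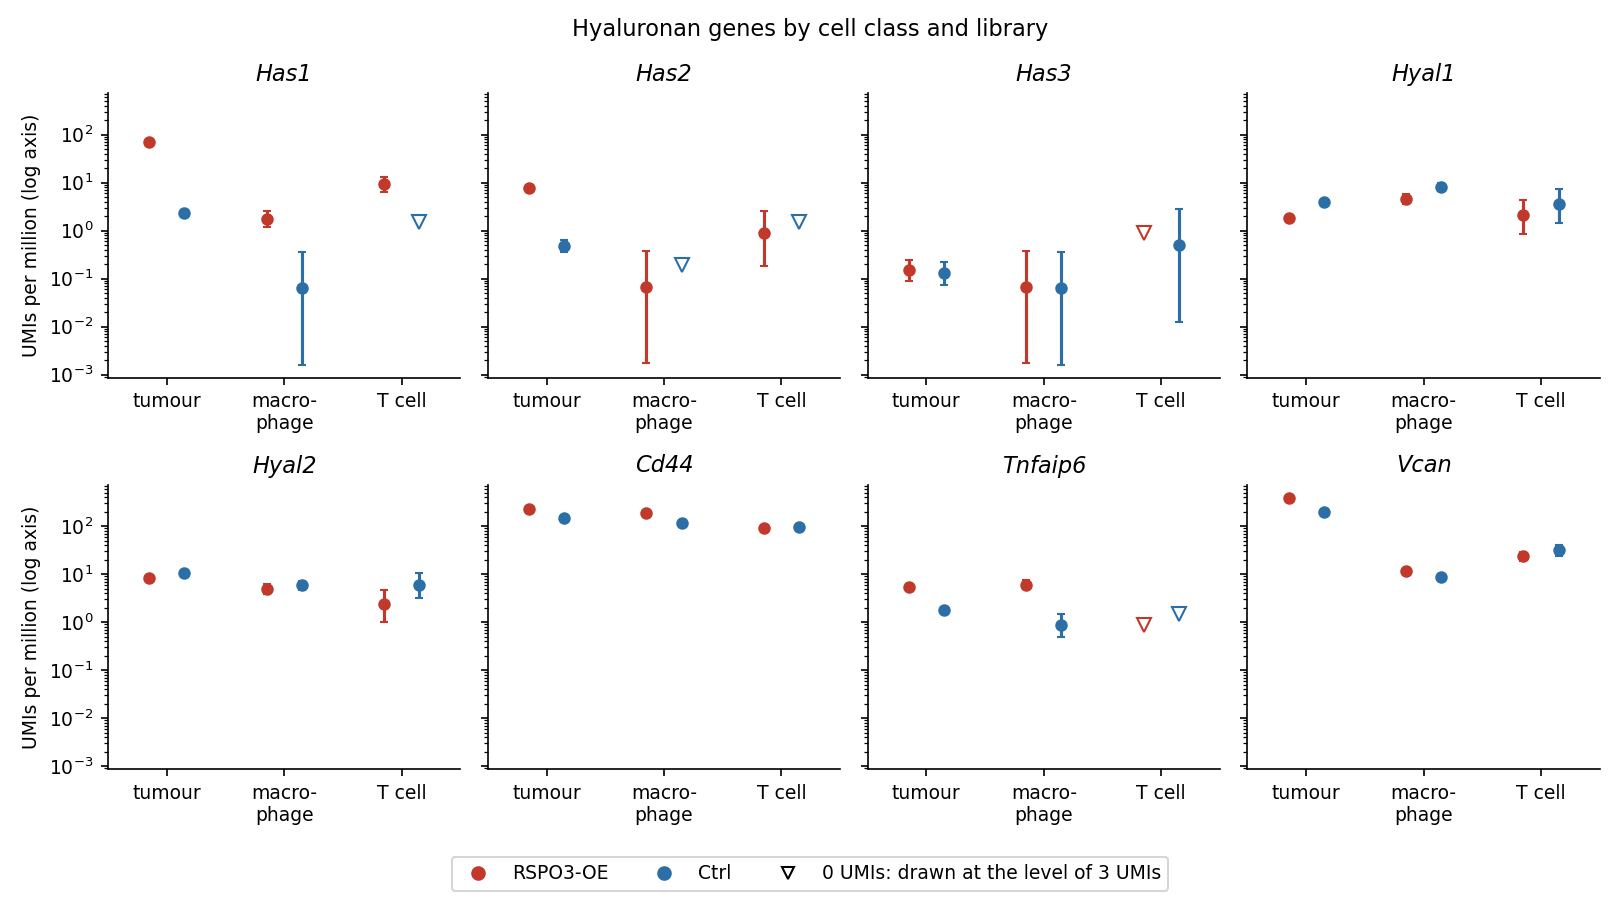
Level of each hyaluronan gene (y axis, CPM, log scale) in tumour cells, macrophages and T cells of the RSPO3-OE (red) and Ctrl (blue) library, each point 1 library with its exact 95% counting interval; open triangles mark 0 UMIs and stand at the level of 3 UMIs. Has1 and Has2 stand far apart between the libraries in tumour cells, at 71.0 against 2.33 and 7.70 against 0.48 CPM, while Cd44 is present in all 3 classes.

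Of the hyaluronidases, Hyal1 was lower in RSPO3-OE tumour cells, with 202 UMIs against 427 and 1.82 CPM (1.58 to 2.09) against 4.04 (3.66 to 4.44). The log2 ratio was -1.15 (-1.39 to -0.90), and 4.72% against 9.23% of cells had a UMI. Its gene overlaps Naa80 and Hyal3 on the same strand, so how reads were split among them is uncertain. Thinned to 2000 UMIs the log2 ratio was -2.61, where only 0.17% of RSPO3-OE and 1.02% of Ctrl cells still had a UMI. Hyal2 had 911 and 1116 UMIs, at 8.22 CPM (7.70 to 8.78) against 10.5 (9.94 to 11.2), a log2 ratio of -0.36 (-0.49 to -0.23). Hyal2 was therefore within 1.5-fold, with a counting interval that did not include 0.

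Of the binding genes, Vcan had 42436 UMIs in RSPO3-OE and 20339 in Ctrl tumour cells, at 383 CPM (379 to 387) against 192 (190 to 195). The ratio was 1.99-fold (1.96 to 2.03), and 96.8% against 86.2% of cells had a UMI. In cells thinned to 2000 UMIs the shares were 52.0% and 32.0%. Cd44 had 25162 and 15571 UMIs, at 227 CPM (224 to 230.0) against 147 (145 to 149.5). Its ratio of 1.54-fold (1.51 to 1.57) lay just above the 1.5-fold limit, and with cells thinned to 2000 UMIs the log2 value went from 0.63 to 0.50, below 1.5-fold. A Cd44 UMI was seen in 92.0% and 82.0% of tumour cells. Tnfaip6 had 608 and 191 UMIs, at 5.49 CPM (5.06 to 5.94) against 1.81 (1.56 to 2.08), a ratio of 3.04-fold (2.58 to 3.60). Thinned to 2000 UMIs its log2 ratio was 0.92 in place of 1.60. Its share of cells was 9.02% and 3.36%.

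**Figure D2:**
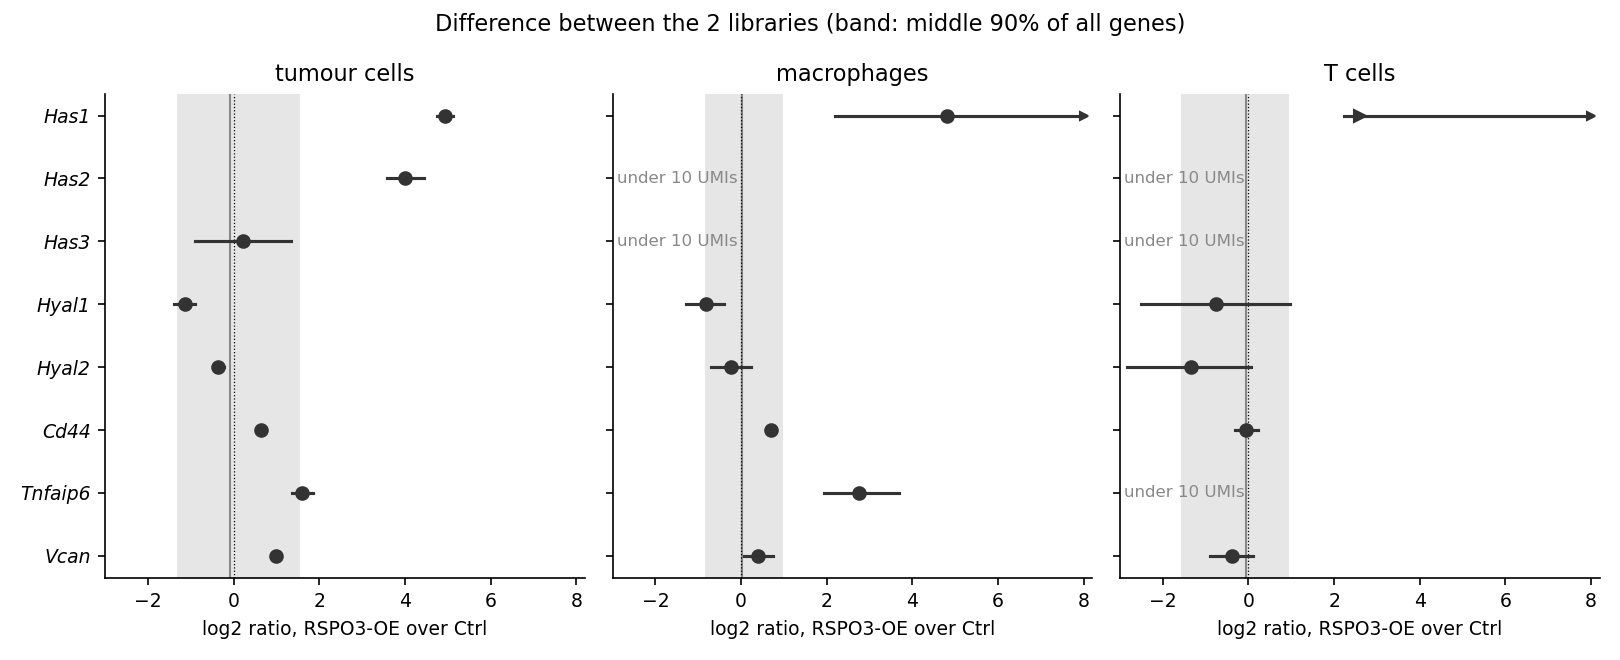
Log2 ratio of RSPO3-OE over Ctrl (x axis) for each hyaluronan gene (y axis) in the 3 classes, with the exact 95% counting interval as a bar, the middle 90% of all genes with at least 10 UMIs as a grey band and their median as a grey line. Has1, Has2 and Tnfaip6 in tumour cells (4.93, 3.998 and 1.60) and Has1 and Tnfaip6 in macrophages (4.81 and 2.76) lie above the band. Hyal1 in macrophages (-0.83) lies just below it. The triangle for Has1 in T cells, also above the band, is a lower bound, and small arrows mark intervals that run off the axis.

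Beside these differences, other genes of the tumour class also stood apart. Krt8, an epithelial keratin, was at 531 and 87.1 CPM, and Hmga2, which defines the class, at 352 and 270.1 CPM. The 4 fibroblast markers summed to 2255 and 1814 CPM, of which Dcn made up the most, with Pdgfra at 17.9 and 28.7 CPM. The 3 endothelial markers summed to 11.2 and 2.35 CPM, with Kdr at 0.018 and 0.0095 CPM. The 6 macrophage markers summed to 63.7 and 67.3 CPM. Their part in the member differences was not tested. In tumour cells without a UMI of Pdgfra or Lum (2712 and 2567 cells) the log2 ratio was higher than over all tumour cells for Has2 (4.44) and Vcan (1.10) and lower for Has1 (4.81), Tnfaip6 (1.59) and Cd44 (0.59, at the edge of the 1.5-fold limit). Hyal1 was at -1.20 and Hyal2 at -0.23 there. Where the class was drawn without Hmga2 (4695 and 5274 cells), Vcan stood at 0.97.

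Among single RSPO3-OE tumour cells Has1 was spread widely rather than held by a few. Of the cells 44.9% had no Has1 UMI, 15.7% had 1, 24.2% had 2 to 4 and 12.7% had 5 to 9. The 103 cells with at least 10 held 15.9% of its UMIs, and the highest cell had 29. In Ctrl, 101 of the 144 cells with Has1 had a single UMI and the highest had 9. Has2 was thinner, with 10.6% of RSPO3-OE cells at 1 UMI and 3.67% at 2 to 4. Tnfaip6 reached 17 UMIs in a cell, and its 4 RSPO3-OE tumour cells with at least 10 held 7.73% of its UMIs. Vcan reached at least 10 UMIs in 1876 of the 4089 RSPO3-OE cells and 580 of the 4313 Ctrl cells.

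**Figure D3:**
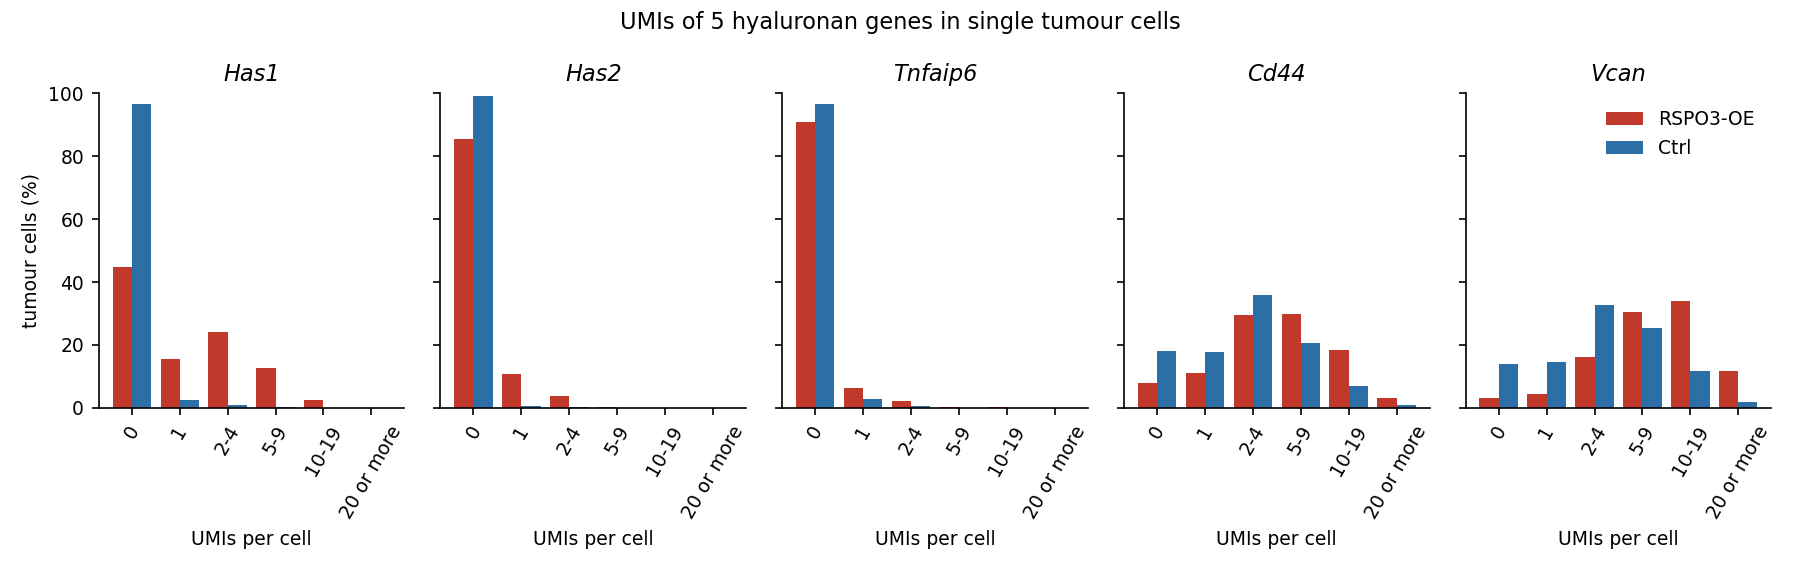
Share of tumour cells (y axis, percent) by the number of UMIs of a gene in the cell (x axis, binned) for 5 hyaluronan genes in RSPO3-OE (red) and Ctrl (blue). Has1 spreads over all bins up to 10-19 UMIs in RSPO3-OE, where 44.9% of cells have none, while Cd44 and Vcan shift towards higher bins.

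Within the RSPO3-OE tumour cells, Has1 was not highest where Rspo3 was highest. It stood at 74.8 CPM (73.0 to 76.7) in the 3191 cells with no Rspo3 UMI, at 63.4 (59.7 to 67.3) in the 568 with 1 to 9 and at 52.5 (48.1 to 57.2) in the 330 with at least 10. Vcan had the same order, at 402, 335 and 312 CPM. Cd44 was near level, at 226, 234 and 227 CPM. Has2 was at 8.09 CPM (7.50 to 8.73), 6.23 (5.11 to 7.53) and 6.94 (5.41 to 8.77), with overlapping intervals. Median depths of the 3 sets were 24196, 27889 and 28093 UMIs. When RSPO3-OE tumour cells were ranked by depth and divided into 3 equal sets, Vcan was at 542, 431 and 289 CPM from the shallowest to the deepest. Has1 was at 69.5 CPM (66.1 to 73.1), 81.6 (78.6 to 84.6) and 65.0 (62.8 to 67.1), highest in the middle set. The part of depth in these orders was not tested. The RSPO3-OE cells with no Rspo3 UMI, set against all Ctrl tumour cells, had log2 ratios of 5.002 for Has1, 4.07 for Has2 and 1.06 for Vcan.

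Tumour cells were also split by genes of the cell cycle, of fibroblasts and by an integrin. Cells with no UMI of the cycling genes Mki67 and Top2a had more Vcan than cells with at least 5, at 529 CPM (520 to 538) against 300.3 (296 to 304.5) in RSPO3-OE and 310 (302 to 317) against 142 (139.5 to 145) in Ctrl. Has2 followed Vcan, at 11.0 against 5.62 CPM and 0.99 against 0.36 CPM, whereas Cd44 had the opposite order, at 185 against 248 CPM and 116.5 against 160 CPM. Has1 had no shared order, at 72.9 against 68.7 CPM in RSPO3-OE and 1.63 against 2.54 CPM in Ctrl. The cycling cells were deeper, with medians of 33029 against 17936 UMIs in RSPO3-OE and 29931 against 15030 in Ctrl. At an equal depth of 2000 UMIs the Vcan shares were still 62.1% against 43.3% and 41.6% against 24.5%. The Cd44 shares were 27.6% against 36.9% and 20.03% against 27.3%. For Has2 in RSPO3-OE the shares at that depth were 1.97% (1.28 to 2.90) against 1.62% (1.10 to 2.29), with overlapping intervals. In both libraries, cells with at least 3 UMIs of Pdgfra and Lum had less Has1 than cells with none, at 42.6 against 79.4 CPM in RSPO3-OE and 0.80 against 2.84 CPM in Ctrl. The same cells had more Has2 (11.8 against 7.04 CPM, and 1.43 against 0.32 CPM) and more Vcan (499.8 against 367 CPM, and 282 against 171 CPM). Has1 and Has2 CPM thus had opposite orders across this split, although all Ctrl tumour cells together held 51 Has2 UMIs. Median depths in RSPO3-OE were 20687.5 against 26262.5 UMIs. At 2000 UMIs the RSPO3-OE shares were 9.63% (6.83 to 13.08) against 14.28% (12.98 to 15.65) for Has1. For Has2 they were 3.48% (1.86 to 5.87) against 1.70% (1.25 to 2.26), and for both genes the intervals overlapped. Tumour cells with a UMI of the integrin gene Itgb4 had 86.5 CPM of Has1 against 56.8 in those without it in RSPO3-OE, while the Ctrl intervals of 2.36 to 4.88 and 1.94 to 2.55 overlapped.

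**Figure D4:**
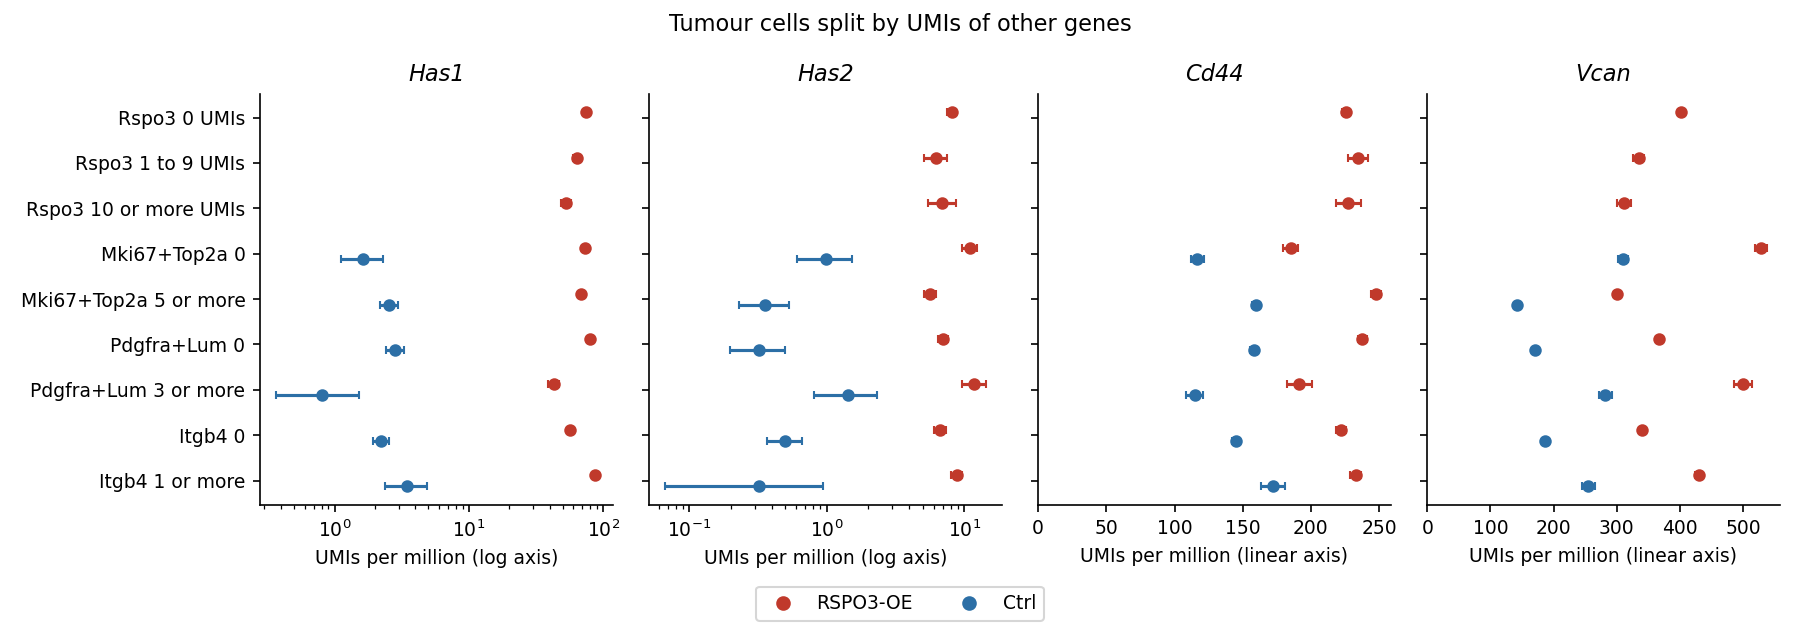
Level of Has1, Has2, Cd44 and Vcan (x axis, CPM, log scale for the synthases and linear for the others) in tumour cells split by UMIs of other genes (y axis), RSPO3-OE red and Ctrl blue, with exact 95% counting intervals; Rspo3 splits exist in RSPO3-OE only. Has1 goes from 74.8 to 52.5 CPM from cells with no Rspo3 UMI to cells with at least 10, and Vcan is lower in cells with at least 5 UMIs of Mki67 and Top2a in both libraries.

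In RSPO3-OE tumour cells thinned to 5000 UMIs, Vcan was seen in 85.9% (83.6 to 88.0) of the 981 cells with a Has1 UMI and 73.5% (71.9 to 75.1) of the 3092 without. Has2 was seen in 5.20% (3.89 to 6.78) and 3.82% (3.17 to 4.55) of them, with overlapping intervals. Has1 was seen in 35.8% (26.8 to 45.7) of the 106 cells with a Tnfaip6 UMI and 23.8% (22.5 to 25.1) of the 3967 without. The genes whose counts over these 4073 cells were most like Has1, among 7469 genes, were Crip1 (Pearson r 0.18), the monocyte chemokine Ccl2 (0.16), Emp3 (0.14), Ugdh (0.14), which makes UDP-glucuronic acid for the synthases, and Vcan (0.13). These values are weak, they come from cells of a single library and carry no p. Vcan was most like matrix genes, in RSPO3-OE Col3a1 (0.39), Dcn (0.36), Fn1 (0.34), Sptbn1 (0.32) and Col1a2 (0.31), and in Ctrl Dcn (0.36), Col3a1 (0.31), Col6a1 (0.26), Apod (0.26) and Malat1 (0.25). Cd44 was most like Hmga2, Tm4sf1, Nppb, Klra4 and Ncl in RSPO3-OE (0.15 to 0.17) and Il1rl1, Tnfrsf12a, Upp1, Hmga2 and Esm1 in Ctrl (0.14 to 0.16). Hmga2 defines the class and was on both Cd44 lists. Hyal2 reached the limit of 5% of cells in Ctrl, and its 5 highest values there were at most 0.07, for Tcof1. Has2, Has3, Hyal1 and Tnfaip6 were in under 5% of thinned cells in both libraries, and Has1 was in Ctrl, so no likeness was computed. Between members, Cd44 and Vcan had r of 0.04 in RSPO3-OE and 0.01 in Ctrl.

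In macrophages 6 of the 8 genes had at least 10 UMIs, and 3 of those 6 were at least 1.5-fold higher in RSPO3-OE (Has1, Cd44 and Tnfaip6) and 1 lower (Hyal1). Over all 12664 genes counted there, 11.0% were higher and 8.56% lower. Cd44 had 2730 UMIs in RSPO3-OE and 1821 in Ctrl, at 187 CPM (180.1 to 194) against 116 (111 to 121), a ratio of 1.61-fold (1.52 to 1.71). A Cd44 UMI was seen in 77.2% and 69.2% of macrophages, and in 28.7% and 20.8% at 2000 UMIs. Tnfaip6 had 88 and 14 UMIs, at 6.03 CPM (4.84 to 7.43) against 0.89 (0.49 to 1.495), a ratio of 6.76-fold (3.83 to 12.9) at rank 48 of 12664. In macrophages without a UMI of Hmga2 or Krt8 its log2 ratio was 3.24 in place of 2.76, an alternative chosen after seeing the data. With cells thinned to 2000 UMIs it was 1.72. Hyal1 had 67 and 128 UMIs, at 4.59 CPM (3.56 to 5.83) against 8.15 (6.80 to 9.69), and Hyal2 73 and 92, at 5.00 (3.92 to 6.29) against 5.86 (4.72 to 7.18). With cells thinned to 2000 UMIs the 2 genes changed places, with Hyal1 at -0.32 on the log2 scale, within 1.5-fold, and Hyal2 at -0.93, past it. At that depth a UMI of either was seen in at most 1.39% of macrophages.

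Has1 and Vcan in macrophages were set beside tumour genes seen in the same droplets. Has1 had 26 UMIs and 1 UMI there, 2.51% and 2.73% of its tumour cell level. Krt8 had 2.39% and 2.27%, and Hmga2 1.93% and 1.60%. In macrophages without a UMI of Hmga2 or Krt8 the Has1 log2 ratio was 2.46 in place of 4.81, on at most 1 Ctrl UMI. Vcan, at 11.5 and 8.72 CPM, had 3.00% and 4.54% of its tumour cell level. That was above Krt8 and Hmga2 and below the matrix gene Mgp, at 7.14% and 13.9%. Rspo3 stood at 4.46% in RSPO3-OE. The part of free tumour RNA in these levels was not tested. In the 1031 RSPO3-OE macrophages with no UMI of Hmga2 or Krt8, Vcan was at 5.70 CPM (4.45 to 7.19) and in the 148 with one at 45.3 (36.7 to 55.3). In the other direction the macrophage gene C1qa stood in tumour cells at 0.14% and 0.13% of its macrophage level, whereas Cd44 in tumour cells was at 121% and 127% of its own. The 4 monocyte markers were all higher in RSPO3-OE macrophages and summed to 487 against 227 CPM. Ly6c2 was at 154 against 48.2 CPM, Chil3 at 43.2 against 1.78, Plac8 at 172 against 83.5 and Ccr2 at 118 against 93.5. Plac8 was not specific to monocytes here, because tumour cells held more of it than macrophages did. Its tumour cell level was 853 against 579 CPM, with a UMI in 99.7% (RSPO3-OE) and 96.6% (Ctrl) of those cells. How much of the macrophage Plac8 was free tumour RNA was not tested. Monocytes were themselves high for Cd44 and, in RSPO3-OE, for Tnfaip6. In macrophages with no Ly6c2 UMI Cd44 was at 174 against 115 CPM and Tnfaip6 at 5.60 (4.35 to 7.10) against 0.80 (0.42 to 1.41). The part of the other monocyte genes was not tested. By state, RSPO3-OE macrophages with a UMI of the monocyte gene Ly6c2 had 250.2 CPM of Cd44 (231 to 271) and those without had 174 (167 to 182), and the Ctrl intervals were 112 to 165 and 109 to 120.4. Macrophages with at least 3 UMIs of the interferon-induced chemokine Cxcl9 had less Cd44 than those with none, at 160.2 against 216 CPM in RSPO3-OE and 93.7 against 127 CPM in Ctrl. Cd44 thus had the same order by Cxcl9 in both libraries, and the cells high for Cxcl9 made up 516 of 1179 and 268 of 1164 macrophages. Within either Cxcl9 set Cd44 was higher in RSPO3-OE, and the intervals did not overlap.

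In T cells 5 of the 8 genes had at least 10 UMIs, with Has1 at least 1.5-fold higher and Hyal1 and Hyal2 lower in RSPO3-OE. Over all 10954 genes counted there, 9.88% were higher and 18.4% lower. Cd44, a marker of activated and memory T cells, was at 91.5 CPM (81.6 to 102) and 94.6 (81.5 to 109), a log2 ratio of -0.05 (-0.31 to 0.22), and was seen in 41.7% and 41.9% of T cells. In RSPO3-OE it stood at 176 CPM (130.3 to 231) in the 36 cells with Cd4 and no Cd8a and at 67.6 CPM (58.1 to 78.2) in the 324 with Cd8a and no Cd4. Ctrl held 5 cells of the former kind. Hyal1 had 7 UMIs in each library and Hyal2 8 and 12, and both log2 intervals, -2.50 to 0.98 and -2.84 to 0.07, included 0. Has1 had 31 UMIs in RSPO3-OE and 0 in Ctrl, at least 6.10-fold higher against a floor of 3 UMIs in Ctrl. Of its UMIs 61.3% lay in a single cell with 19. The 29 T cells with a UMI of Hmga2 or Krt8 had 59.9 CPM (39.1 to 87.8) of Has1, near the tumour cell level, and the 376 others 1.71 CPM (0.55 to 3.98). Vcan had the same pattern, at 154 CPM in those 29 cells against 4.43 in the 376, and in Ctrl at 94.7 in 18 cells against 4.97 in 185. Krt8 itself stood in T cells at 9.11% and 138% of its tumour cell level. Without those cells Has1 fell under the minimum of 10 UMIs and was not counted, so no ratio is given for it there. No other member was at least 1.5-fold higher in T cells in that setting. Tnfaip6 had 0 UMIs in T cells of either library, where 3 UMIs would be 0.89 and 1.51 CPM.

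Rarer classes put the tumour cells in an order, although each rests on few cells. Host fibroblasts, defined by Y-linked and collagen genes, held 7 RSPO3-OE and 6 Ctrl cells and had the highest Has1 of any class, at 464 CPM (354 to 597) and 285 (189 to 411). Next came RSPO3-OE tumour cells at 71.0 and, in that library, NK cells at 26.6 CPM (12.1 to 50.4), from 9 UMIs of which 8 were in a single cell. Host fibroblasts also led for Has2, at 77.3 CPM (37.1 to 142) and 40.7 (11.1 to 104), and for Tnfaip6, at 781 CPM (636 to 949) and 142 (77.8 to 239). Single cells carried much of this. In RSPO3-OE 2 of the 7 cells held 92.1% of the Tnfaip6 UMIs, with 47 in the highest, and 2 held 83.3% of the Has1 UMIs. In Ctrl 1 of the 6 cells held 67.9% of the Has1 UMIs. In RSPO3-OE their Vcan interval, 260.3 to 474, held the tumour cell value, whereas in Ctrl their level of 650.5 CPM (501 to 831) was above it. Cd44 was highest in neutrophils, at 1696 CPM (1478 to 1937) in 69 RSPO3-OE cells and 661 (449 to 938) in 13 Ctrl cells, at median depths of 1624 and 1779 UMIs. Monocytes followed at 492 CPM (449 to 538) and 346 (287 to 413). Below them in RSPO3-OE stood tumour cells (227), macrophages (187), host fibroblasts (162), T cells (91.5), NK cells (70.8) and endothelial cells (30.4). The host fibroblast interval, 100.5 to 248, held both neighbours above it, and the NK interval, 45.4 to 105, held the T cell value. The 12 RSPO3-OE endothelial cells also had 578 CPM of tumour and 1172 CPM of fibroblast markers, against 12.9 and 25.8 in Ctrl. Their Y-linked genes summed to 45.7 CPM against 155 in Ctrl, and the part of tumour cells in this class was not tested. Monocytes had Vcan at 92.8 CPM (74.6 to 114) and 122 (88.3 to 164), well above macrophages. Tnfaip6 was at 188 CPM (120.2 to 279) in RSPO3-OE neutrophils, from 24 UMIs, with 0 UMIs in the 13 Ctrl neutrophils. In RSPO3-OE monocytes it was at 17.5 CPM (10.2 to 28.1), and in Ctrl monocytes 1 UMI was seen.

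Other pathway genes in tumour cells are given by list, and each count stands beside the 12.9% higher and 17.3% lower over all genes there. Of 12 genes that make the sugar precursors, all counted, 1 was at least 1.5-fold higher, 0 were lower and the median log2 ratio was 0.18. That gene was Gfpt2, an enzyme of the hexosamine pathway, at 3.26 (1.21 to 6.40) from 20 and 2 UMIs. Ugdh, which oxidises UDP-glucose to UDP-glucuronic acid, stood at 167 and 113 CPM, a log2 ratio of 0.57 (0.54 to 0.61) that lay just under the limit. The lowest were Pgm2 at -0.57 and Gpi1 at -0.34. Of 11 other breakdown genes 7 were counted, with 1 higher, 1 lower and a median of 0.02. Cemip, which binds and depolymerises hyaluronan, was at 0.60 (0.12 to 1.09) from 95 and 60 UMIs. Hgsnat, on the list although it acts in heparan sulphate breakdown, was at 0.48. Gusb, the lysosomal glucuronidase, was at 15.8 against 32.0 CPM, a log2 ratio of -1.02 (-1.11 to -0.94), and Cemip2 at -0.32.

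Of 16 other binding and uptake genes 7 were counted, with 1 higher, 1 lower and a median of -0.12. Hapln3, a link protein that fixes proteoglycans to hyaluronan, was higher at 4.06 (2.64 to 5.98), from 70 and 4 UMIs, and its relative Hapln4 lower at -0.66 (-0.84 to -0.48). Hmmr, a receptor for hyaluronan that also works on the mitotic spindle, was at 0.13, and Layn at -0.26. Of 8 genes for cross-linking and partners of the coat only Ptx3 and Thbs1 were counted, at 1.75 (0.96 to 2.62) and -0.98 (-1.10 to -0.86). The inter-alpha-inhibitor heavy chain genes on that list had at most 4 UMIs in the tumour cells of a library, whereas Itih5 had 123 and 80 UMIs in T cells. Of 7 partners and ligands of Cd44, all counted, 3 were higher and 1 lower, with a median of 0.02. Msn (moesin), which ties Cd44 to actin, was at 498 and 286 CPM, a log2 ratio of 0.80. Cd74 was at 1.20, with 28.1 and 12.3 CPM in tumour cells against 10625 and 7294 in macrophages. The part of macrophage RNA in its tumour cell level was not tested. Spp1 (osteopontin), a ligand of Cd44, was at 1804 and 2948 CPM, a log2 ratio of -0.71, and Arhgef2 was at -0.49.

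Of 11 versican partners and cleaving enzymes 8 were counted, with 3 higher, 2 lower and a median of 0.38. The versican-cleaving proteinase Adamts5 was at 54.5 against 16.9 CPM, a log2 ratio of 1.69 (1.62 to 1.77), and fibulin Fbln1 at 1.17. Another such proteinase, Adamts9, was at 0.44 against 1.64 CPM, a log2 ratio of -1.89 (-2.38 to -1.43), and Fbln2 at -0.65 from 6 and 9 UMIs. All 4 genes of the receptor for hyaluronan fragments were counted and none was past 1.5-fold, with a median of -0.07. Myd88 and Tlr4 were at 0.37 and -0.03, Cd14 and Ly96 at -0.11 and -0.17. The median over all 15097 genes was -0.09. In macrophages, where 11.0% of all genes were higher, 4 of 6 counted versican partners were higher, of which Tlr2, at 218 against 118 CPM, had more than 32 UMIs in a library, and 1 of 4 fragment receptor genes, Cd14, at 1035 against 595 CPM. These 2 were named after their values had been seen.

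**Figure D5:**
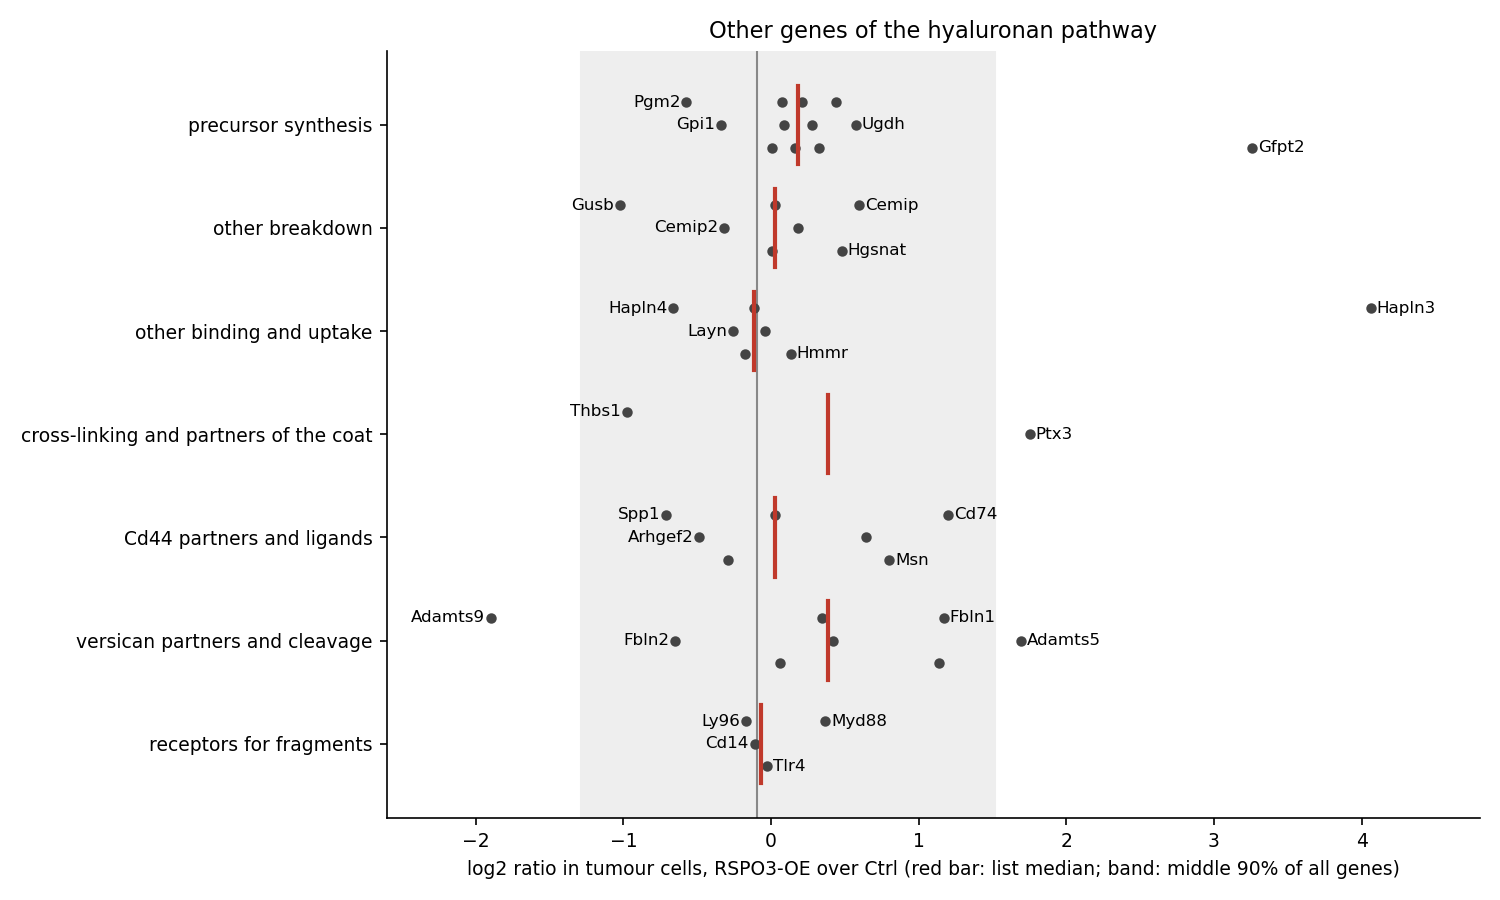
Log2 ratio of RSPO3-OE over Ctrl in tumour cells (x axis) for other genes of the pathway by list (y axis), each dot a gene with at least 10 UMIs, the 2 highest and 2 lowest of a list named, the red bar the list median and the grey band the middle 90% of all genes. Hapln3 (4.06), Gfpt2 (3.26), Ptx3 (1.75) and Adamts5 (1.69) lie above the band and Adamts9 (-1.89) below it.

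The genes lie on 6 mouse chromosomes (mm10, GENCODE vM21). Has1 (ENSMUSG00000003665) spans chr17:17843323-17855205, Has2 (ENSMUSG00000022367) chr15:56665627-56694539, Has3 (ENSMUSG00000031910) chr8:106870242-106884566, Cd44 (ENSMUSG00000005087) chr2:102811141-102901665, Tnfaip6 (ENSMUSG00000053475) chr2:52038009-52056686 and Vcan (ENSMUSG00000021614) chr13:89655312-89742509. Hyal2 (ENSMUSG00000010047, chr9:107567945-107572779) and Hyal1 (ENSMUSG00000010051, chr9:107576927-107581710) are neighbours on the plus strand. Both were lower in RSPO3-OE in each of the 3 classes, with Hyal1 past 1.5-fold in all of them at full depth. Thinning to 2000 UMIs brought Hyal1 within 1.5-fold in macrophages, at -0.32 on the log2 scale. In T cells thinning left too few Hyal1 UMIs for a counted ratio. The intervals of Hyal2 in macrophages and of both genes in T cells included no difference.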

How the data were processed

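Matrices of raw UMI counts per gene and barcode, 1 per library, were used as the authors deposited them. Per the labels' protocols, cells were loaded on a 10x 3′ kit and reads processed with Cell Ranger 3.0.1, and per the submitters' processing notes the build was mm10. Per the file headers the software version was 3.1.0. Computation used scanpy 1.11.5, pandas 2.3.3, scipy 1.17.1 and numpy 2.4.6 under Python 3.11.15. Total depth was 155615189 UMIs over 7314 barcodes (RSPO3-OE) and 143881763 over 7301 (Ctrl).

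A barcode needed at least 200 genes and at most 20% mitochondrial UMIs, which removed 150 and 311, and Scrublet, at an expected doublet rate of 0.05, removed a further 171 and 95 (2.39% and 1.36%). Tumour cells, macrophages and T cells followed the UMI rules in the text. Others were monocytes (Ly6c2 at least 2, Lyz2 at least 5, C1q genes under 20), neutrophils (S100a8 and S100a9 at least 50), NK cells (Ncr1 and Klrb1c at least 2, Cd3 genes under 2), host fibroblasts (no Ptprc, Y-linked genes at least 2, Col1a1 and Col1a2 at least 20) and endothelial cells (no Ptprc, Pecam1, Cdh5 and Kdr at least 3). Barcodes in no class numbered 898 and 1107. UMIs were summed per class and library. CPM has exact Poisson, shares Clopper-Pearson and ratios exact binomial intervals at 95%. A sum of 0 was set to a floor of 3 counts, and no ratio was made where both sums were at most 3. A gene was called at 1.5-fold among genes with at least 10 UMIs. With 1 library per group no p-value was computed.

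The members and gene lists were chosen with earlier results of these data known. The rule named all members, up to 2 highest and 2 lowest genes per list in tumour cells, and 5 genes most like a member over cells thinned to 5000 UMIs. Code was tested on simulated counts. RefSeq promoters matched 6 of 8 members, and loci came from GENCODE vM21. Alternatives changed filters, doublets, class rules, scaling, depth and minimum counts.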

Additional observations from a re-analysis of the deposited data

How the results depend on the processing

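Of the recomputed counts of members past 1.5-fold, 63 stayed within 1.5 times the reported count and 7 did not. Of the recomputed member ratios 192 stayed within their counting interval and 24 moved beyond it. None turned a higher call into a lower call or the reverse, but some calls were gained or lost. In tumour cells 5 genes stayed higher and 1 lower in every alternative except thinning to 2000 UMIs, which left 4 higher. With doublets kept, 5 members were higher in macrophages and 2 in T cells. In T cells, averaging the cells' own CPM or thinning left 0 higher, and thinning left 0 lower. Without T cells holding Hmga2 or Krt8 UMIs, an alternative chosen after seeing the data, 0 were higher and 1 lower. Has1 had no counted ratio in T cells under the settings that left 0 higher. Hyal2 had none without the Hmga2 or Krt8 cells, and thinning left a counted ratio for Cd44 alone. These lower counts therefore do not show ratios that fell within 1.5-fold. Vcan in macrophages ran from -0.05 under stricter class rules to 1.505 with doublets kept. In T cells Vcan went from -0.39 to 0.68 with doublets kept, a change of sign. Median-of-ratios scaling moved all log2 ratios in tumour cells by 0.09. Has1 in tumour cells stayed between 4.78 and 5.02. The cause of each move was not tested, and T cell values rest on few UMIs. No paired analysis was possible because each group had 1 library.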
